A study of Mus musculus with 18 samples.

Results

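The far 5′ gene desert of the mouse HoxD locus is the outer part of the long gene-poor stretch that lies between Atp5g3 and Lnp, beyond the 5′ end of the Hoxd gene cluster. It was taken here as chr2:73751054-74241351 (mm9), 490.3 kb in length, and its contacts with itself are described. A contact was counted when one fragment carried a forward and the other a reverse primer, when their midpoints were at least 10 kb apart, and when both midpoints lay in this interval. Pairs with an end in chr2:74004374-74037000, a 32.6-kb window, were left out. The rule gave 927 pairs among 63 EcoRI fragments, out of 10068 pairs at least 10 kb apart among the 203 fragments of the limb design. The window splits the desert into a distal part of 33 fragments on the Atp5g3 side (246 pairs within it) and a proximal part of 30 fragments on the HoxD side (188 pairs within it), with 493 pairs between the parts.

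Contacts were measured by 5C (chromosome conformation capture carbon copy), in which cross-linked chromatin is cut with EcoRI, neighbouring ends are ligated, and primer pairs that meet at a junction are ligated, amplified and sequenced. Of the 18 libraries of the series, the 4 used here came from 2 mesenchymal cell lines derived from distal forelimb buds of Immortomouse embryos at E10.5, one from the anterior (A2) and one from the posterior (P2) of the bud, with 2 libraries each. Immortomouse cells carry a temperature-sensitive T antigen that interferon induces, and both lines were grown at 33°C with γ-interferon at 20 ng/ml and fixed with 1% formaldehyde for 10 min. Each group is therefore 1 immortalized line, so that line and position in the bud cannot be told apart, and no RNA was measured in these libraries against which the cell type could be checked. The study calls its second data set of limb cells a biological replicate; whether that means a separate culture is not stated in the labels, and p-values measure the spread between these libraries. Values are reads per 1000 reads of the sequencing run, called contact frequency below.

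In the distal limb bud, transcription of the 5′ Hoxd genes, Hoxd13 among them, is switched on by several enhancers that are spread over this desert, known as regulatory islands, together with the GCR (global control region), which lies closer to the cluster. The desert and the 5′ end of the cluster form one regulatory landscape, in which enhancers and promoters make contact over long distances. Posterior distal cells are known for strong Hoxd13 expression and anterior ones for little, and the 2 lines serve to compare these states. The positions of the islands were not used here.

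The mm9 annotation holds no protein-coding gene in the interval. Its 4 annotated genes are the pseudogene Gm13668 (chr2:73797726-73798721) and the processed transcripts A630050E04Rik (chr2:73938981-73940399) and Gm13667 (chr2:73973814-73988891), all in the distal part, and the processed transcript 4930441J16Rik (chr2:74136997-74145774) in the proximal part. Only 9 of the 63 fragments overlap one of these genes, and 7 overlap an exon. All 63 fragments start and end at an EcoRI site in the genome sequence. Their lengths ran from 161 to 31735 bp, with a median of 3373 bp in the distal and 1506.5 bp in the proximal part.

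A few fragment ends are shown here, since in 5C a fragment is seen through the one end that its primer covers. The headers of the second libraries give the last 30 bases of every desert fragment as its primer position. The first 3 lines show the ends of the fragments with the highest mean ratio of observed to expected contacts of the 63, as described below, and the other 3 those of the fragments with the lowest, each as 36 bases of the plus strand of mm9, with the EcoRI site in capitals.
hoxd_22, chr2:73835144-73835179: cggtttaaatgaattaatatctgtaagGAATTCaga
hoxd_36, chr2:73913229-73913264: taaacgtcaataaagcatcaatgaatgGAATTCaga
hoxd_91, chr2:74152767-74152802: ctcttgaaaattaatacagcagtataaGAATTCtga
hoxd_98, chr2:74171822-74171857: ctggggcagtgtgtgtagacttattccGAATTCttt
hoxd_102, chr2:74190883-74190918: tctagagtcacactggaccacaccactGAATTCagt
hoxd_38, chr2:73922624-73922659: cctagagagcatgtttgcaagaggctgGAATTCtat
The 30 bases under the primer hold 26.7% G and C in hoxd_22 and hoxd_91 and 30% in hoxd_36, and 50% in each of the other 3, which were picked as extremes; over all 63 fragments the relation was weak (Spearman's rho −0.24, without a test).

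The 4 libraries held 1081237 and 718996 reads (A2, first and second library) and 478818 and 2096681 reads (P2, first and second). At these depths 3 reads correspond to 0.00277, 0.00417, 0.00627 and 0.00143 reads per 1000, a floor that covers counting error only. The median desert pair was seen 67, 33, 31 and 93 times. Pairs with no read did not follow depth: 22 and 158 of the 927 pairs were empty in the first and second A2 library, and 2 and 98 in the first and second P2 library, so that the first libraries had few empty pairs and the second ones many. The first and second libraries also differ in their file headers, where 71 fragments are named by whole-fragment coordinates in the first and by 30-base primer coordinates in the second, and since each kind holds 1 library of each line, differences between the lines are given within each kind as well. Over the 927 pairs, log2 contact frequencies of the first A2 and first P2 library correlated at r = 0.74, and those of the other 5 library pairs at r = 0.58 to 0.67, pairs of libraries of the same line included.

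Desert contacts fell with distance in all 4 libraries, but slowly. The mean contact frequency of pairs 10 to 20 kb apart was 0.20 and 0.279 in the A2 libraries and 0.190 and 0.231 in the P2 libraries. At 80 to 160 kb it was 0.0897 and 0.0725 in A2 and 0.0887 and 0.0652 in P2, and at over 320 kb it was 0.0409 and 0.0405 in A2 and 0.0448 and 0.0335 in P2. Averaged over the 4 libraries it fell from 0.225 at 10 to 20 kb to 0.0399 beyond 320 kb, and much of the drop lay in the first step. From 20 to 40 kb the means were already 0.122 and 0.110 in A2 and 0.125 and 0.0882 in P2.

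Fitted on a log-log scale over classes from 10 to 480 kb, the slope was −0.378 and −0.545 in A2 (mean −0.461 ± 0.118, SD, n = 2) and −0.385 and −0.485 in P2 (−0.435 ± 0.0705, SD, n = 2). The lines overlapped and differed by 0.0265, with an exact permutation test giving p = 1 (2-sided; 2 libraries against 2 cannot give less than 0.333). Both second libraries had steeper slopes than both first libraries. Without the closest and the farthest pairs, from 20 to 240 kb, the desert slope was −0.239 and −0.294 in A2 and −0.246 and −0.233 in P2. Over these distances the slope of the near 5′ flank, between the desert and the cluster, was −0.42 to −0.50 in the 4 libraries, and that of the 3′ flank, on the other side of the cluster, was −0.313 to −0.390, so that the desert's 4 values were all shallower than the 8 of the flanks, which were compared without a test. Within the distal part alone the slope was −0.350, −0.514, −0.326 and −0.330, and within the proximal part alone −0.181, −0.220, −0.305 and −0.276, in the order A2 first and second, P2 first and second library.

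**Figure D1:**
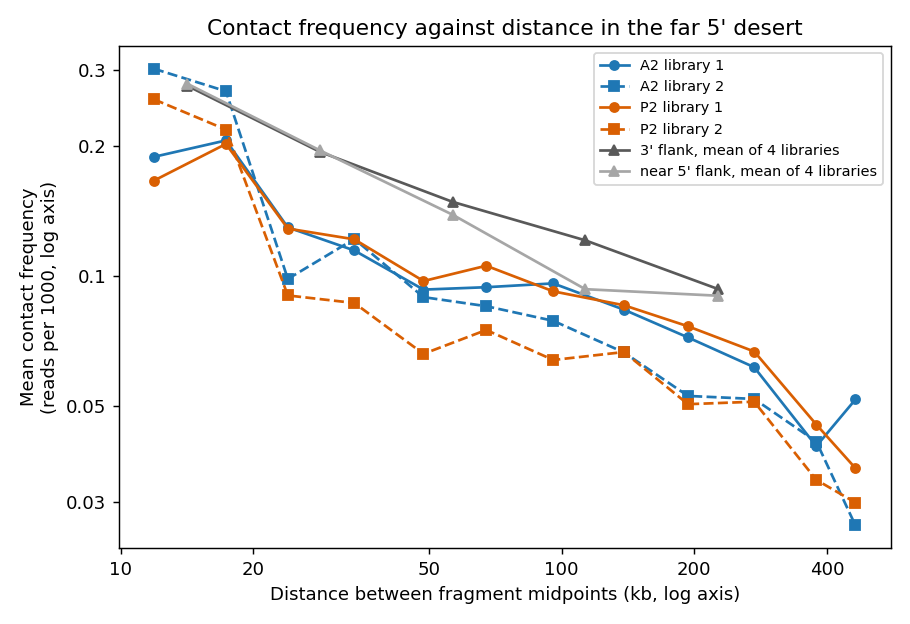
Mean contact frequency of desert pairs (reads per 1000, log axis) against the distance between fragment midpoints (kb, log axis) in narrow classes, 1 line per library; grey triangles are means of 4 libraries for pairs within the 3′ and near 5′ flanks, drawn at the middle of each doubling. The drop is steepest around 20 kb, and the second libraries (dashed, squares) start above and end below or beside the first ones (solid, circles). Most desert values lie below the flank means, with the second A2 library at the shortest distances (0.302) among the exceptions.

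At the same distance, desert fragments were seen in contact less often than fragments of either flank. Ratios were taken within each library, per distance doubling, and averaged over the doublings, so that they do not depend on how the library was scaled. The log2 ratio of desert to 3′ flank contacts was −0.642 and −0.495 in A2 and −0.655 and −0.701 in P2, a mean of −0.62 (SE 0.0881, limma, adjusted p = 8.9e-09), or 0.649 of the flank level. Against the near 5′ flank it was −0.588 and −0.407 in A2 and −0.649 and −0.393 in P2, a mean of −0.51 (SE 0.0881, limma, adjusted p = 7.9e-07), or 0.703 of the flank level. Of the 26 ratios tested against 0, which overlap in their pairs and share one estimate of the spread, 18 passed (69.2%), among them all 12 of these comparisons of the desert with a flank. That estimate counted the overlapping rows as independent (52 degrees of freedom), so that the p-values overstate what 4 libraries can show. With the first and second libraries as a block, the adjusted p was 0.0047 (limma) for both mean ratios. Averaged over the doublings the log2 ratio of the near 5′ to the 3′ flank was −0.11 (limma, adjusted p = 0.25), but at 80 to 160 kb it was −0.39, or 0.763-fold, and below 0 in 4 of 4 libraries (limma, adjusted p = 8.7e-05). Neither desert ratio kept its direction once every primer was scaled to the same mean over all its limb pairs, a step that evens out primer strength and real differences in level between regions alike, so that these cannot be told apart here: the ratios were then 0.02 (limma, adjusted p = 0.56) and 0.10 (adjusted p = 0.039). With only fragments of 1 to 10 kb at both ends they were −0.75 and −0.63. The 2 parts of the desert were not alike in this, as means of the 4 libraries show. At 10 to 20 kb the distal part (0.297) was above the 3′ flank (0.276) and the near 5′ flank (0.278), though not in each library. At 80 to 160 kb it was close to the near 5′ flank (0.0911 against 0.0931). The proximal part was at 0.172 and 0.0568 at these distances.

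Within the desert the distal part had the denser contacts. Pairs of the distal part had a mean frequency of 0.120 and 0.122 in A2 and 0.129 and 0.0981 in P2, and pairs of the proximal part 0.0853 and 0.0780 in A2 and 0.0804 and 0.0711 in P2, so that every distal value was above every proximal one. Matched for distance, the log2 ratio of distal to proximal contacts was 0.68 and 0.97 in A2 and 0.854 and 0.742 in P2, a mean of 0.81 (SE 0.0881, limma, adjusted p = 1.1e-11), or 1.75-fold. This p-value rests on the same pooled spread. With the first and second libraries as a block it was 0.0047 (limma, adjusted). All 4 distance doublings from 10 to 160 kb gave a ratio above 0 in 4 of 4 libraries, between 1.62-fold at 80 to 160 kb and 1.87-fold at 20 to 40 kb. Fragments of the distal part were also longer (median 3373 against 1506.5 bp). The ratio was 1.45-fold among fragments of 1 to 10 kb (0.457 and 0.641 in A2, 0.621 and 0.420 in P2 on the log2 scale), and 1.11-fold after scaling all primers to the same mean (log2 0.16, limma, adjusted p = 0.018), which also evens out levels between the parts. The part of fragment length in this ratio was not tested.

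No drop of contacts across the left-out window was detected. Pairs within one part were compared with pairs between the parts at 80 to 160 and 160 to 320 kb. The log2 ratio of within to between contacts was 0.0005 and −0.0696 in A2 and 0.0084 and −0.0590 in P2, a mean of −0.03 (SE 0.0881, limma, adjusted p = 0.80). The 2 distances went opposite ways: the ratio was −0.14 at 80 to 160 kb (above 0 in 1 of 4 libraries; limma, adjusted p = 0.15) and 0.08 at 160 to 320 kb (0.335 and −0.199 in A2, 0.141 and 0.0549 in P2; adjusted p = 0.41), where 40 of the 44 within-part pairs are distal. At 80 to 160 kb the frequency between the parts was 0.108 and 0.0700 in A2 and 0.0952 and 0.0720 in P2. Distal pairs at this distance gave 0.0955 and 0.0891 in A2 and 0.104 and 0.0760 in P2, and proximal pairs 0.0710 and 0.0484 in A2 and 0.0625 and 0.0453 in P2. The between-part values lay above the proximal ones in each library and overlapped the distal ones.

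**Figure D2:**
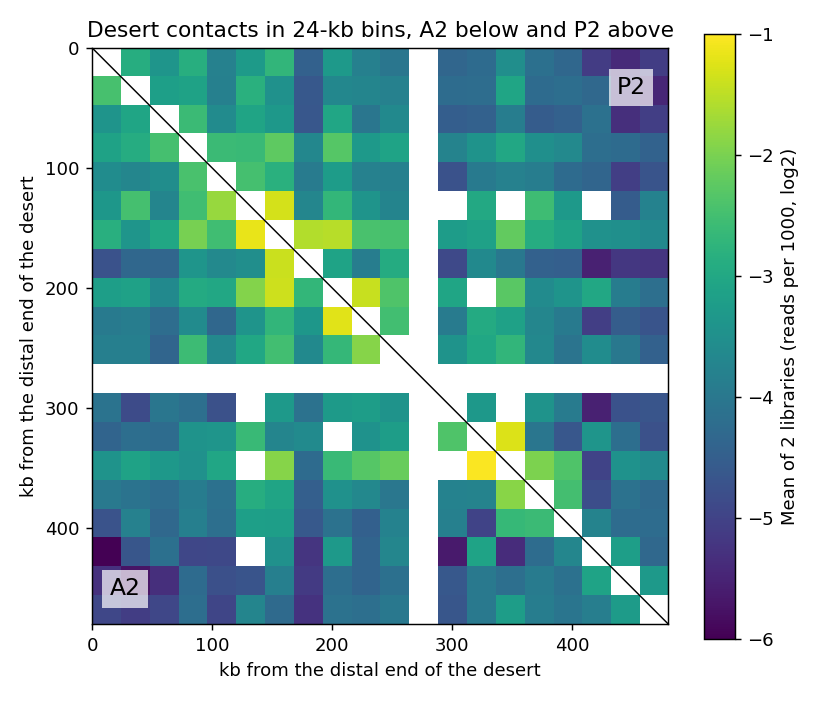
Contacts between 24-kb bins of the desert as the mean of the 2 libraries of a line (log2 of reads per 1000, colour), A2 below and P2 above the diagonal, both axes in kb from the distal end. White squares are the diagonal, the left-out window (the white band) and bins with no value. Bright squares beside the diagonal near 150, 220 and 340 kb are seen in both lines but rest on only 1 or 2 fragment pairs each. The distal block is brighter than the proximal one.

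A boundary score was used to look for local domains: at positions 10 kb apart, contacts that span the position were set against contacts on one side of it, all ends within 80 kb and each corrected for distance, so that a low log2 score marks a place that contacts seldom cross. Fragments beyond the desert were not left out, so that scores within 80 kb of its HoxD-side end also count contacts with the near 5′ flank. Across the 45 desert positions with a value, scores ran from −0.98 to 0.68 in single libraries. Only 3 positions had a local minimum of each of the 4 libraries within 10 kb. The deepest was chr2:74081054, in the proximal part near the end of the 16380-bp fragment hoxd_72, with scores of −0.13 and −0.98 in A2 and −0.53 and −0.48 in P2 (mean −0.53 ± 0.35, SD over 4 libraries). This score rests on 12 spanning pairs and on 3 fragments on the distal side of the position. After scaling primers to equal means the score was −0.16 (−0.74 to 0.17 over the libraries), and with a reach of 120 kb it was 0.11. A shallow one lay around chr2:74151054 (mean 0.03 ± 0.10, SD, n = 4). The last, chr2:74221054, was itself no minimum, with scores of 0.08 and −0.11 in A2 and 0.14 and 0.11 in P2 (mean 0.05). It lay between minima of −0.09 and −0.12 at chr2:74231054 in the first A2 and P2 libraries and of −0.23 and −0.19 at chr2:74211054 in the second ones. At chr2:74231054 all 4 libraries were below 0 (mean −0.13). Most of its 127 spanning pairs reach into the near 5′ flank, as hoxd_127 is the only desert fragment with its midpoint beyond this position.

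A broader low stretch lay in the distal part on the side of the left-out window. At chr2:73971054, just upstream of the transcript Gm13667, the score was −0.39 and −0.64 in A2 and −0.23 and −0.60 in P2 (mean −0.47). It rests on 17 spanning pairs and 12 pairs on one side. From chr2:73921054 to chr2:73991054 at least 3 of the 4 libraries were below 0 at every position. The first P2 library was the exception at 5 of these 8 positions, with scores up to 0.15. Scores at chr2:73951054 and chr2:73961054 were identical in each library. With primers scaled to equal means the mean scores of this stretch ran from −0.24 to 0.26, as the dotted line of the boundary plot shows. They were then above 0 from chr2:73951054 to chr2:73991054, with 0.23 at chr2:73971054, so that the low scores there did not keep their direction. For comparison, the lowest mean score of the limb region was −1.02, at chr2:74491054 in Evx2, and 5 of all 111 positions scored lower than the deepest desert minimum. No boundary was called as different between the lines: of the 111 positions tested between P2 and A2 0 were called (0%, limma with Benjamini-Hochberg adjustment), and of the 45 in the desert 0 had an unadjusted p below 0.05.

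**Figure D3:**
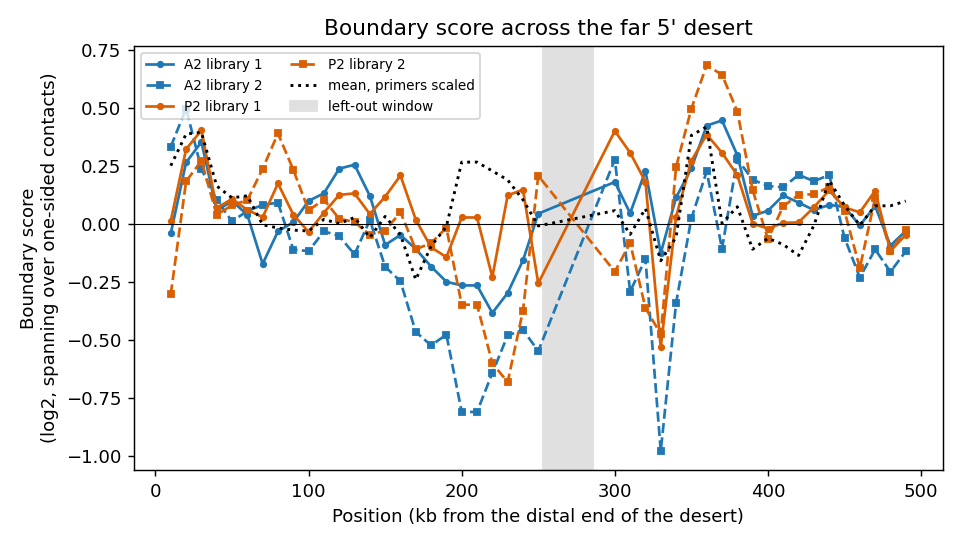
Boundary score (log2 of contacts spanning a position over contacts on one side of it) at positions 10 kb apart, in kb from the distal end of the desert, for 2 A2 and 2 P2 libraries; the dotted line is the mean of the 4 with primers scaled, and the grey band is the left-out window. A low point near 330 kb is shared by the 4 libraries, reaching −0.98 in the second A2 library, while the low stretch near 200 to 240 kb is deep in the second libraries and shallow or absent in the first P2 library. The dotted line is positive over that stretch. Scores within 80 kb of the right end of the desert include contacts with the near 5′ flank.

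Contacts of the desert were carried unequally by its fragments. For each pair the frequency was divided by the mean of desert pairs at that distance in the same library, and the mean of this observed over expected ratio over a fragment's pairs ran from 0.259 for hoxd_98 to 2.19 for hoxd_22. The order of the 63 fragments was much alike in the libraries, with Spearman's rho between 0.86 and 0.91 for pairs of libraries, which share the same primers. Fragment hoxd_22 (chr2:73822046-73835173, 13128 bp, no annotated gene) had mean ratios of 1.92 to 2.46 over the 4 libraries, hoxd_36 (chr2:73887762-73913258, 25497 bp, no annotated gene) 1.83 to 2.15, and hoxd_91 (chr2:74145485-74152796, 7312 bp) 1.75 to 2.04. The last of these holds an exon of 4930441J16Rik, a noncoding transcript on the minus strand whose 5′ end lies in it. At the other end, hoxd_98 (chr2:74170514-74171851) had ratios of 0.109 to 0.408, hoxd_102 (chr2:74182530-74190912) 0.224 to 0.408 and hoxd_38 (chr2:73919903-73922653) 0.171 to 0.465.

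Long fragments had more contacts. Over the 63 fragments, Spearman's rho between length and mean ratio was 0.71 and 0.62 in the A2 libraries and 0.61 and 0.62 in the P2 libraries. It was 0.70 within the distal and 0.58 within the proximal part, on the mean of the libraries. Some fragments departed from this relation: hoxd_102, with 8383 bp, was among the 3 lowest, and the 16380-bp hoxd_72 had a ratio of 1.05. G and C content of the whole fragment gave a rho of 0.19. Fragments share libraries and partners, so these values describe this set of primers only.

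**Figure D4:**
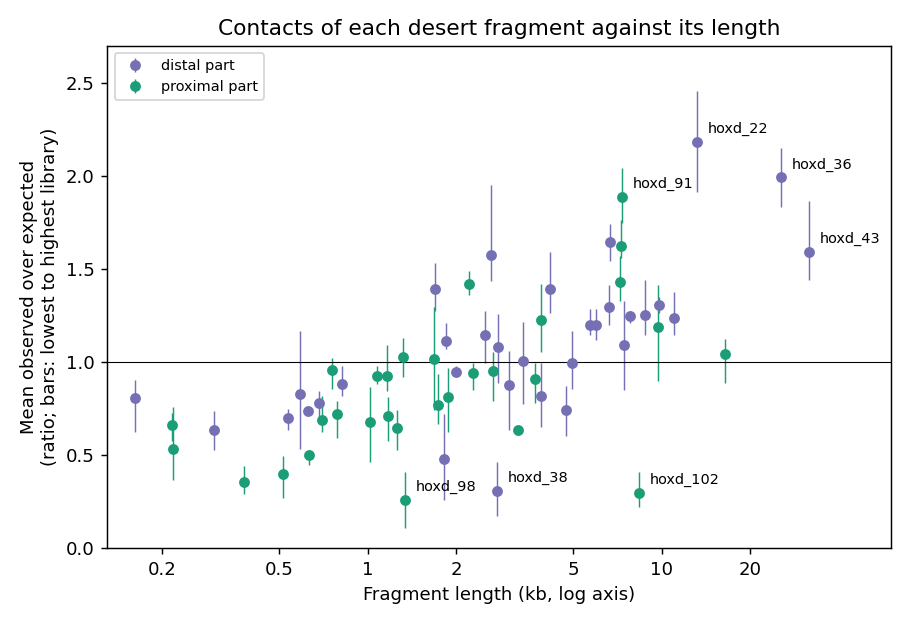
Mean observed over expected ratio of each of the 63 desert fragments against its length (kb, log axis); points are means over 4 libraries, bars run from the lowest to the highest library, and colours mark the distal and the proximal part. The fragments hoxd_22, hoxd_36 and hoxd_91 stand at 1.89 to 2.19, while hoxd_98, hoxd_102 and hoxd_38 stay under 0.5 in every library.

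The pairs that stood out most from their distance class were shared by the libraries only in part. The 93 highest of the 927 ratios were taken in each library. A pair was among them in all 4 libraries in 17 cases, in 3 libraries in 27, in 2 in 49, in 1 in 125 and in none in 709 cases. Of the 17 shared pairs 11 have hoxd_22, hoxd_36 or hoxd_91 as an end, fragments that have 27, 34 and 33 of the 927 pairs. They were picked for the highest mean ratios over these same pairs, so that a high share among the 17 follows from the choice. The highest ratio belonged to hoxd_22 with hoxd_91, which are 321 kb apart on either side of the left-out window. Their contact frequency was 0.268 and 0.345 in A2 and 0.188 and 0.240 in P2 (290, 248, 90 and 504 reads), 6.65 and 8.35 times the mean of desert pairs at that distance in A2 and 4.15 and 7.14 times in P2. Both A2 libraries lay above both P2 libraries in frequency, but their ratios overlapped.

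Next came hoxd_22 with hoxd_36, 71.9 kb apart in the distal part, with 0.420 and 0.451 in A2 and 0.370 and 0.314 in P2, or 4.46 and 5.30 times the expected frequency in A2 and 3.50 and 4.196 times in P2. The pair hoxd_14 with hoxd_91, 353 kb apart, gave 0.193 and 0.249 in A2 and 0.123 and 0.108 in P2, or 4.79 and 6.03 times in A2 and 2.72 and 3.20 times in P2. In both of these pairs the A2 ratios lay above the P2 ratios without overlap, which was not tested for single pairs. How many of all desert pairs separate in this direction was not counted, so that no difference between the lines is read from these pairs. Fragment hoxd_14 (chr2:73790634-73801646) holds the pseudogene Gm13668. The neighbours hoxd_36 and hoxd_37, whose midpoints are 16.1 kb apart, gave 0.733 and 1.40 in A2 and 0.624 and 0.891 in P2, the highest frequency of any desert pair in 3 of the 4 libraries, or 3.09 to 5.24 times the expected one. The last of the 6 pairs were hoxd_36 with hoxd_73 (188 kb, 1.97 to 5.65 times) and hoxd_8 with hoxd_73 (321 kb, 2.72 to 4.06 times). In hoxd_8 with hoxd_73 the A2 ratios (4.06 and 3.53) also lay above the P2 ratios (2.72 and 3.10). The ratios of the lines overlapped in hoxd_36 with hoxd_37 and in hoxd_36 with hoxd_73.

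These ratios include the strength of both fragments. After every primer was scaled to the same mean, hoxd_22 with hoxd_91 was at 1.80 and 1.97 in A2 and 0.872 and 1.33 in P2 and ranked 59 of the 927 pairs, and hoxd_22 with hoxd_36 was at 0.735 to 1.21 and ranked 355. The pair hoxd_14 with hoxd_91 was at 1.72 and 1.93 in A2 and 1.03 and 1.15 in P2, and hoxd_8 with hoxd_73, at 1.23 to 1.97, was the highest of the 6 with a rank of 26. The pair hoxd_36 with hoxd_37 was at 0.946 to 1.64 and ranked 131, and hoxd_36 with hoxd_73 was at 0.529 to 1.54 and ranked 265. The contacts of hoxd_36 with hoxd_22 and with hoxd_73 thus no longer stood out once the other contacts of the same fragments were taken into account. That of hoxd_36 with hoxd_37 stood out less.

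Anterior and posterior cells were compared to see whether desert contacts differed between them. The mean contact frequency of the 927 pairs was 0.0789 and 0.0737 in A2 (0.0763 ± 0.0037, SD, n = 2) and 0.0822 and 0.0638 in P2 (0.0730 ± 0.0130, SD, n = 2). The P2 libraries lay on either side of the A2 libraries. The log2 difference of P2 minus A2 was −0.06 (SE 0.21, 95% interval −0.47 to 0.36, limma, adjusted p = 0.99), and it was 0.05 between the first and −0.16 between the second libraries. This SE and interval are not those of the whole desert alone. They come from 1 spread pooled over the 81 readouts of the limb region, which overlap and were counted as independent (162 degrees of freedom).

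The same was found for the parts and distances. The distal part differed by −0.09 (0.09 between the first and −0.26 between the second libraries), the proximal part by −0.09 (−0.07 and −0.11) and the contacts between the parts by −0.01 (0.07 and −0.09). Of the 16 readouts of the desert 0 were called and 0 had an unadjusted p below 0.05, and of all 81 readouts of the limb region 0 were called (0%, limma) and 3 had an unadjusted p below 0.05. None of the 26 matched-distance ratios differed between the lines either (0%, limma, adjusted p = 0.96 for each, with 0 at an unadjusted p below 0.05). The distal to proximal ratio differed by −0.03, with a 95% interval of −0.38 to 0.33 from the spread pooled over the 26 ratios.

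In 24-kb bins, 173 bin pairs of the desert were tested among 1193 of the limb region. None was called, in the desert or elsewhere (0%, limma with Benjamini-Hochberg adjustment), with 2 and 24 at an unadjusted p below 0.05. Both P2 libraries were above both A2 libraries in 21 of the 173 (12.1%, against 10.9% of all bin pairs tested) and below them in 17 (9.83%, against 14.1%), and the lines overlapped in the other 135. The differences of the first and of the second libraries had the same sign in 83 of the 173 bin pairs and correlated at r = −0.16. The median difference of P2 minus A2 over the 173, both kinds of library averaged, was −0.05, against −0.02 over all bin pairs. Data were simulated for these 1193 bin pairs with independent noise of 1 pooled observed spread. Changes of 2-, 4- and 8-fold were planted in 66, 72 and 62 of them. There 97.2% of 4-fold and 36.4% of 2-fold changes were called, so that changes near 2-fold in single bin pairs were often not detectable. Libraries of a line differed more in the desert than over all bin pairs (SD of log2 differences 0.633 against 0.521 in A2, 0.543 against 0.461 in P2). The rates were not obtained for the desert alone and need not hold there. They also depend on how many changes were planted, as many changes ease the Benjamini-Hochberg threshold. For a few changes among the 1193 bin pairs the rates would be lower.

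**Figure D5:**
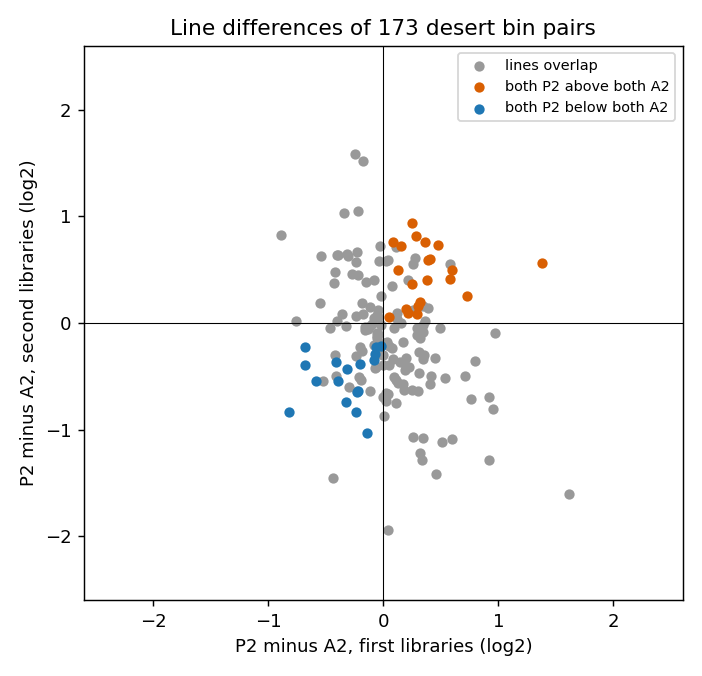
P2 minus A2 (log2 of contact frequency plus 0.02) of the 173 desert bin pairs between the first libraries (horizontal axis) and between the second libraries (vertical axis). The points scatter around 0 in all quadrants (r = −0.16); coloured points are the 21 and 17 bin pairs in which the lines did not overlap.

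The largest differences without overlap are given as values, as none passed the test. The bin chr2:74135054-74159053, which contains 4930441J16Rik, had a contact frequency within itself of 0.0287 and 0.0654 in A2 and 0.107 and 0.106 in P2 (log2 difference 0.97, SE 0.35; 1.38 between the first and 0.56 between the second libraries), on a single fragment pair. Contacts of chr2:73919054-73943053 with chr2:73991054-74015053 were at 0.103 and 0.0593 in A2 and 0.152 and 0.111 in P2 (0.60, SE 0.35; 0.48 and 0.73). Those of chr2:74087054-74111053 with chr2:74183054-74207053 were at 0.0720 and 0.0387 in A2 and 0.0894 and 0.0925 in P2 (0.60, SE 0.34; 0.25 and 0.94). These 3 were the highest in P2 relative to A2. Their size rested on single libraries: in this order the differences were 0.56, 0.92 and 0.92 without the first A2 library and 1.37, 0.29 and 0.27 without the second.

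In the other direction, contacts between the neighbouring bins chr2:74039054-74063053 and chr2:74063054-74087053, at the window side of the proximal part, were at 0.183 and 0.20 in A2 and 0.0950 and 0.104 in P2 (log2 difference −0.83, SE 0.32). This was the most even of the 6, with −0.82 between the first and −0.83 between the second libraries, and rests on 2 fragment pairs. The neighbouring bins chr2:73847054-73871053 and chr2:73871054-73895053 gave 0.206 and 0.380 in A2 and 0.185 and 0.176 in P2 (−0.59, SE 0.35; −0.14 and −1.03), and the difference was −0.18 without the second A2 library and −0.996 without the first. Contacts of chr2:73967054-73991053 with chr2:74039054-74063053, across the left-out window, were at 0.123 and 0.0932 in A2 and 0.0752 and 0.0577 in P2 (−0.56, SE 0.33; −0.59 and −0.54). Each of the 6 had an adjusted p of 1.00 (limma).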

How the data were processed

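Contact frequencies were analysed in the 4 limb libraries; the other 14 libraries of the series, from ES cells, were not used here. The authors processed Ion Torrent reads with a 5C pipeline on Galaxy, and the deposited matrices hold signal values: reads of a primer pair per 1000 reads of the run, on mm9. The sources used here name no aligner. Read totals were recovered from the step of the values (all values whole to within 0.001 reads). Primer direction was read from the contacts (classes of 103 and 100 primers). Fragments were placed by midpoint; empty pairs counted as 0. Sequence and annotation were from NCBIM37 (GENCODE vM1). Means over pairs were compared as log2(value + 0.02) with limma 3.58.1 (R 4.3.3), A2 and P2 as groups, without a block, over 81 region readouts, 1193 bin pairs with a mean above 0.02, 26 ratios and 111 boundary positions, with Benjamini-Hochberg adjustment at 0.05 within each. Ratios and boundary scores had no pseudocount and needed 10 pairs. Slopes were compared by exact permutation. The scripts were tested on simulated data. No library was a copy of another: chi-square over its degrees of freedom, on the reads of each pair of libraries, was 8.49 to 33.1. Replicate numbers follow the order of deposit and pair nothing by themselves. Named were the 3 largest rises and 3 largest falls of bin pairs without overlap (as fewer than 3 passed the test), and the 6 pairs with the highest geometric mean ratio among the 643 with 3 or more reads in each library. Also named were positions with a local minimum of each library within 10 kb. The fragments with the lowest contacts, the distal low stretch and the highest raw pair were chosen after their values were seen. The members, lists and tests were chosen with earlier results of these data known. Alternatives covered scaling, pseudocount, distance, filters, capping at the 99th percentile, primer scaling, bin size, reach, single libraries and a replicate block.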

Additional observations from a re-analysis of the deposited data

How the results depend on the processing

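With the first and second libraries as a replicate block, 0 desert readouts, bin pairs and boundary positions were called between the lines, as without it; the slope difference stayed at 0.0265, and the ratios against 0 kept their calls (limma, adjusted p = 0.0047 for the desert to flank and distal to proximal ratios). Deviations of same-numbered libraries correlated at r = 0.21 over the desert bin pairs. Scaling to the desert total set the whole-desert P2 minus A2 difference to 0 by construction and that between the parts to 0.041. Scaling primers to equal means gave 0.031 for the whole desert, 0.0056 in the distal part and 0.089 between the parts, none called; it turned the desert to 3′ flank ratio to 0.018, the desert to near 5′ flank ratio to 0.104 and the within to between ratio to 0.014. Keeping the left-out window turned the line difference of the distal to proximal ratio to 0.0496 and of the within to between ratio to −0.066. The boundary score at chr2:74081054 was 0.11 with a reach of 120 kb. The cause of these turns was not tested.

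Leaving out 1 library at a time gave −0.20 to 0.086 for the whole-desert line difference, −0.26 to 0.077 for the distal part, −0.17 to 0.15 between the parts and −0.0570 to 0.11 for the slope. For the line differences of the ratios it gave −0.15 to 0.10 (desert to near 5′ flank), −0.17 to 0.12 (distal to proximal) and −0.0258 to 0.0443 (within to between). Called desert bin pairs ranged from 0 to 2: without the first A2 library 1 was called (bins chr2:73991054-74015053 and chr2:74063054-74087053, log2 difference 2.09, limma, adjusted p = 0.0013), and without the first P2 library 2 were called (chr2:73871054-73895053 with chr2:73991054-74015053, −2.01, and chr2:73967054-73991053 with chr2:74087054-74111053, −1.95, limma, adjusted p = 0.020 for both). Each of these 3 rests on 1 fragment pair, and the lone library was assumed to vary like the other line. Over the whole limb region these fits called 13 and 5 of 1193. Limma with voom weights on recovered reads, added after seeing the data, called 0 desert bin pairs and 2 of all 1193 (11 of 173 and 90 of 1193 at an unadjusted p below 0.05); with the block it called 0 and 2 (7 and 95). The mean slope was −0.253 from 20 to 240 kb. Of the 256 values under alternatives, 229 kept their direction and their side of the threshold or moved by less than the spread. Line differences under the replicate block, which could not change in size, are among them. The planned count-model tests were not run on the recovered reads; voom took their place. Groups of 2 libraries limit the precision of every line difference, and a count of 0 calls does not show that the lines are alike.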
